A study of Mus musculus with 34 samples.

Results

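Nicotinic acetylcholine receptors are ion channels of 5 subunits that open when acetylcholine or nicotine binds, and the genes described here are the 9 neuronal subunit genes Chrna3, Chrna4, Chrna5, Chrna6, Chrna7, Chrna9, Chrnb2, Chrnb3 and Chrnb4. They were found by symbol among 48795 genes counted in neuron-enriched dorsal root ganglion (DRG) cells of the mouse, and all 9 were in the table. Of these, 8 passed the filter on low counts and were tested among 19565 genes. Chrna9 did not pass.

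Ganglia L4 to L6, which send axons into the sciatic nerve, were taken from 17 mice of 8 to 12 weeks, 3 days after the nerve was crushed on the left. Each mouse gave 1 injured library and 1 naive library, the naive one from the side that was not crushed, which makes 34 libraries. The ATF3 cKO mice (8 mice, 5 female and 3 male) were Adv-Cre+ and ATF3-fl_homo, so Cre driven by the sensory neuron gene Advillin removed exon 3 of Atf3, a transcription factor induced by axon damage. The ATF3 wt controls (9 mice) kept ATF3. They were 4 Cre-negative females heterozygous for the floxed allele, 2 Cre-negative females with wild-type alleles and 3 Cre-positive males with wild-type alleles, so sex and Cre cannot be told apart among the controls. The groups are called cKO injured, cKO naive, wt injured and wt naive.

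In a nicotinic receptor, alpha subunits carry most of the agonist site and partner subunits complete it. Chrna3 and Chrnb4 encode the pair that makes the main receptor of autonomic ganglia, and in mouse DRG Chrna3 is known as a marker of mechanically insensitive nociceptors. Chrna5 and Chrnb3 encode accessory subunits that join receptors made by others, Chrna6 encodes an alpha subunit often found with beta3, Chrna4 and Chrnb2 make the most common receptor of the brain, and Chrna7 and Chrna9 can form receptors alone. Within sensory neurons these channels can depolarize the cell and have been studied as modulators of pain.

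Library totals ran from 35732193 to 77632944 counts. Values are CPM, the counts of a gene per 1e+06 counts of its library after TMM scaling, and replicates are different mice. The Atf3 count covers the whole gene and does not check the deletion: it averaged 264 ± 59.6 CPM in cKO injured and 119 ± 25.5 CPM in cKO naive libraries (SD, n = 8), and 364 ± 145 and 125 ± 30.8 CPM in wt injured and wt naive libraries (SD, n = 9). Avil, the gene of Advillin, was at 432 to 531 CPM in 7 cKO mice but at 83.4 to 88.8 CPM in cKO-131. It was at 487 to 555 CPM in the 3 Cre-positive controls, 792 to 1040 CPM in 5 Cre-negative controls and 499 to 517 CPM in wt-150, which is labelled Cre-negative. Libraries of cKO-131 and wt-150 thus stand apart from those of mice with the same Cre label, and results are given without them where that matters. Only wt-150 has the level of mice with the other label. The wt injured library of wt-176 also stood apart for 4 subunits. Of the 34 libraries it had the lowest total (35732193 counts), the lowest TMM factor (0.872) and the highest share of counts in 3 genes that overlap ribosomal RNA (11.34%), and the part of these in its values was not tested.

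On the naive side, Chrna7, Chrna6 and Chrnb2 were the most abundant subunits for their length. Per kilobase of exons, they averaged 17.2 ± 2.83, 15.7 ± 2.25 and 15.1 ± 0.987 CPM in wt naive libraries (SD, n = 9), and these 3 did not differ beyond their spread. Chrnb4 at 11.9 ± 3.66 and Chrna3 at 10.2 ± 2.34 CPM per kilobase came next; they did not differ beyond their spread, and Chrnb4 was not clear of Chrnb2. Well below lay Chrnb3 at 3.70 ± 0.654, Chrna4 at 1.56 ± 0.326 and Chrna5 at 0.124 ± 0.0404 CPM per kilobase, each clear of the one above it. In cKO naive libraries the levels per kilobase followed nearly the same order, with Chrna7 at 16.5 ± 3.42, Chrna6 at 16.3 ± 2.42, Chrnb2 at 14.5 ± 1.07 and Chrna5 at 0.0997 ± 0.019 CPM (SD, n = 8). After injury Chrnb2 and Chrna7 led in both genotypes: per kilobase Chrnb2 stood at 13.5 ± 1.20 CPM in cKO injured and 14.6 ± 1.15 CPM in wt injured libraries, and Chrna7 at 13.7 ± 2.23 CPM in cKO injured and 11.1 ± 1.70 CPM in wt injured libraries. Chrna4 at 1.96 ± 0.116 and Chrnb3 at 1.73 ± 0.654 CPM per kilobase did not differ beyond their spread in cKO injured libraries.

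All comparisons come from a single edgeR quasi-likelihood model (the 4 groups, plus sex), and adjusted p-values are by Benjamini-Hochberg over all 19565 genes, with a threshold of 0.05. In wt mice, 1 of 8 tested subunits was higher after crush (12.5%) and 3 were lower (37.5%), where 14.3% of all genes were called higher and 12.7% lower. In cKO mice, 1 was higher (12.5%) and 0 were lower, where 2.61% of all genes were called higher and 0.583% lower. The median log2 fold change of the 8 subunits was -0.51 in cKO and -0.66 in wt mice, against 0.02 over all genes in each. Both libraries of a mouse come from the same animal, and with each mouse as a block the wt counts became 1 higher and 5 lower (20.8% and 20.1% of all genes) and the cKO counts 1 higher and 1 lower (4.77% and 3.62% of all genes).

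**Figure D1:**
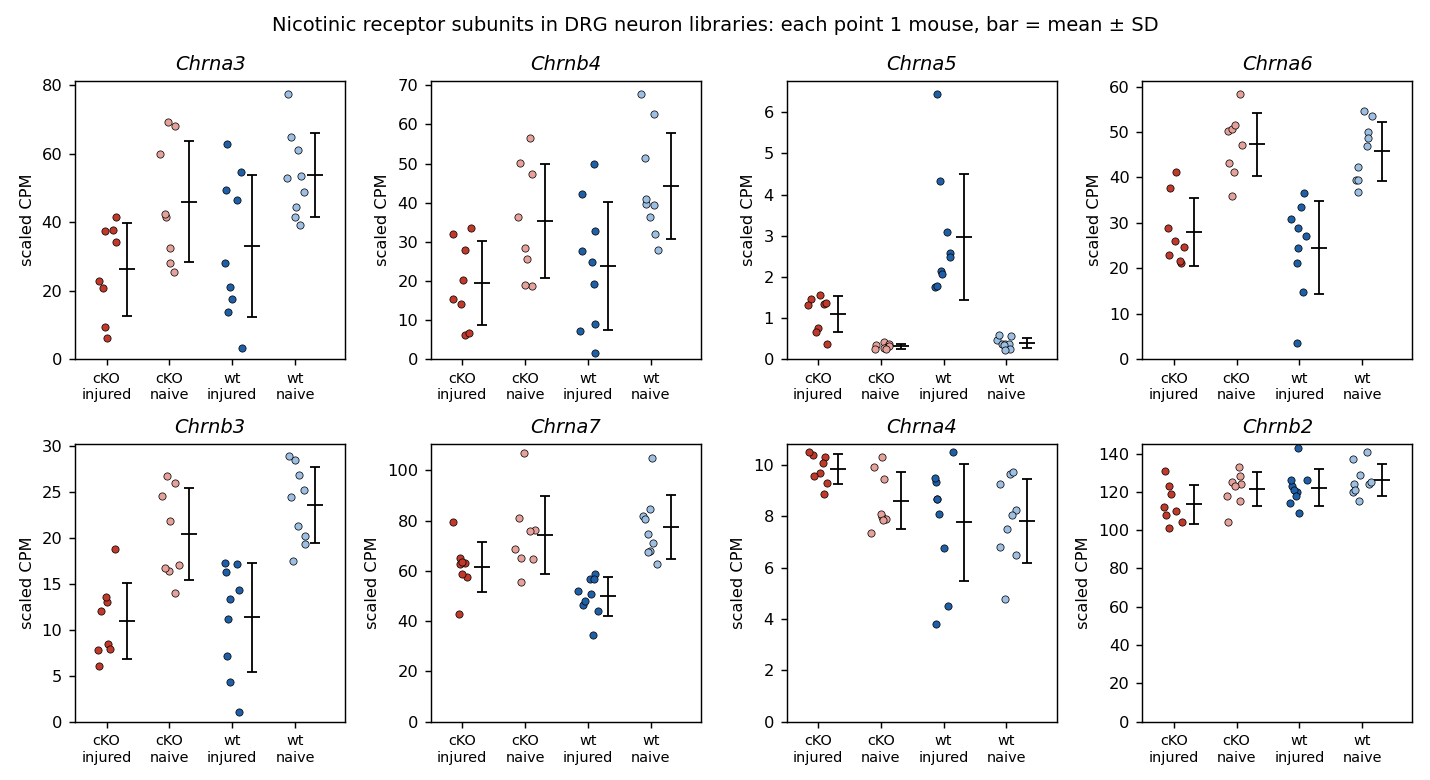
TMM-scaled CPM (vertical axis, from 0) of the 8 tested subunits in each library, by group; each point is 1 mouse and each bar the mean ± SD (n = 8 for cKO, 9 for wt). Chrna5 rises after injury from a very low level, most in wt mice, while Chrnb2 stays between 101 and 143 CPM in every library.

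Chrna5, the accessory alpha subunit that changes the calcium permeability and desensitization of receptors it joins, was the one subunit that rose after crush, and it did so in both genotypes. In cKO injured libraries it had a lowest, median and highest level of 0.357, 1.33 and 1.55 CPM, against 0.251, 0.299 and 0.417 CPM in cKO naive libraries. In wt injured libraries these were 1.74, 2.47 and 6.45 CPM, against 0.209, 0.369 and 0.574 CPM in wt naive libraries. The wt groups did not overlap, the highest level was that of wt-176, and every wt injured library was above every cKO injured library. Among cKO mice only cKO-131, with 0.357 CPM injured and 0.360 CPM naive, had no higher value on the injured side. These levels are low: the wt naive libraries held 199 counts over 9 mice, and the fewest in any of the 34 libraries was 11.

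The log2 fold change of Chrna5 was 1.82 (SE 0.29, adjusted p = 6.62e-05, edgeR), or 3.53 times the naive level, in cKO mice. In wt mice it reached 2.92 (SE 0.27, adjusted p = 6.16e-10, edgeR), or 7.55 times the naive level. It passed the threshold in both genotypes in all 17 fits that left out 1 mouse, with log2 fold changes of 1.70 to 1.98 in cKO and 2.63 to 3.07 in wt mice. Within females alone the log2 fold change was 1.68 in cKO (adjusted p = 0.051) and 2.79 in wt mice (adjusted p = 1.72e-05), and within males alone 2.03 in cKO (adjusted p = 0.0417) and 3.15 in wt mice (adjusted p = 0.00209), all by edgeR. In mice with a high share of ribosomal counts the cKO value did not pass (1.70, adjusted p = 0.0686) and the wt value did (2.91, adjusted p = 3.39e-05), and with a low share both passed (2.03, adjusted p = 0.0147, in cKO and 2.91, adjusted p = 0.000694, in wt mice). Without cKO-131 and wt-150 the values were 1.98 in cKO and 3.07 in wt mice. In these bulk libraries, fewer cells of a type and less RNA per cell cannot be told apart.

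On the injured side, Chrna5 was lower in cKO than in wt mice. It averaged 1.10 ± 0.444 CPM in cKO injured libraries (SD, n = 8) and 2.96 ± 1.53 CPM in wt injured libraries (SD, n = 9), which is 0.376 times the wt level (log2 -1.41, SE 0.26, adjusted p = 0.000248, edgeR). It was the only 1 of 8 subunits called in this comparison (12.5% lower), where 3.57% of all genes were called higher and 7.55% lower. Without cKO-131 and wt-150 the value was -1.35 (adjusted p = 0.000265, edgeR), and among Cre-positive mice only it was -1.41 (adjusted p = 0.0335, edgeR). Among females it was -1.48 (adjusted p = 0.0207) and among males -1.29 (adjusted p = 0.133), by edgeR. All female controls were Cre-negative and all cKO females Cre-positive, so ATF3 loss and Cre cannot be told apart among females. The controls of the Cre-positive fit were the same 3 males as in the male fit, so these 2 fits are not separate evidence. In mice with a low share of ribosomal counts it was -1.44 (adjusted p = 0.0171), and with a high share -1.39 (adjusted p = 0.0363). On the naive side, Chrna5 averaged 0.312 ± 0.0595 CPM in cKO and 0.389 ± 0.126 CPM in wt libraries, a log2 difference of -0.31 that did not pass (SE 0.29, adjusted p = 1.00, edgeR).

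The difference between the injury effects on Chrna5, cKO minus wt, was -1.10 on the log2 scale (SE 0.39) and did not pass the threshold (adjusted p = 0.139, edgeR). Blocking by mouse gave 0.112 for that p-value. The levels on the injured side passed as different, and the injury effects did not. Of the 8 subunits, 0 passed for this difference by edgeR, with 2 (Chrna5 and Chrna7) at an unadjusted p under 0.05 and 0 by DESeq2; the comparison called 0.695% of all genes higher and 2.15% lower. With the mouse as a block 1 passed, Chrna7, where 3.25% of all genes were called higher and 4.29% lower.

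Chrna5 shares a gene cluster on chromosome 9 with Chrna3 and Chrnb4. On GRCm38 the cluster runs from base 54980880 to 55048779, a span of 67900 bases, with Chrna5 (ENSMUSG00000035594) on the plus strand and Chrna3 (ENSMUSG00000032303) and Chrnb4 (ENSMUSG00000035200) on the minus strand. A promoter of each of the 3 genes is shown because the cluster holds the subunit that rose beside 2 with lower averages after crush. Each runs from 250 bases before a start given by RefSeq on GRCm38.p6 to 50 after it. Capitals mark TGACG, part of the site bound by ATF and CREB factors. The cluster coordinates are from the GENCODE annotation, whose starts can differ from these. For Chrnb4 the GENCODE start, base 55048779, lies inside the window shown.
Chrna5, chr9:54980630-54980929, plus strand: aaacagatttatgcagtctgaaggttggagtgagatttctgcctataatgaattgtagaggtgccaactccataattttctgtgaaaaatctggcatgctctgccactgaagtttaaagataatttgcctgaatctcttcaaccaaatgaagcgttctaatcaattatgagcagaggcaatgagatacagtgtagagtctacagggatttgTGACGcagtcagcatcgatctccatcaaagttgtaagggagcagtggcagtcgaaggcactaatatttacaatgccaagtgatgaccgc
Chrna3, chr9:55026513-55026812, minus strand: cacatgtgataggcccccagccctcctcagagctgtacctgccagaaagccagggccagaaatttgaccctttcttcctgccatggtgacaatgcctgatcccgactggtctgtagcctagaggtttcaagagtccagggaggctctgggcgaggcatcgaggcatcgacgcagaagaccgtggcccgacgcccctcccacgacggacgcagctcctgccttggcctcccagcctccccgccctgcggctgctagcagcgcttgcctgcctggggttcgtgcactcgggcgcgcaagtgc
Chrnb4, chr9:55048495-55048794, minus strand: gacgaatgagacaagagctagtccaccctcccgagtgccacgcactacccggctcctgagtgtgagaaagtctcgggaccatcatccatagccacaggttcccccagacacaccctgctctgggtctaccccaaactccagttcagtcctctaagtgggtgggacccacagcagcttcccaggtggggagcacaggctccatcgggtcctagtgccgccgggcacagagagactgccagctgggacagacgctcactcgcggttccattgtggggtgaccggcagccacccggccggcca
TGACG was searched on both strands, as were the full site TGACGTCA, which contains it, and the AP-1 site TGANTCA. The Chrna5 promoter shown holds 1 TGACG, which begins 39 bases before the start (position -39), and neither of the longer motifs. None of the 3 motifs is in these windows of Chrna3 or Chrnb4, nor in those of Chrna4, Chrna7 and Chrna9. A second Chrna5 promoter, chr9:54981238-54981537 on the plus strand, is not shown and holds none of them either. Which of the 2 Chrna5 promoters these cells use was not tested. The windows of Chrna4 and Chrna9 and the second one of Chrna5 lie within their GENCODE gene bodies and do not cover the GENCODE starts. Chrnb2 holds 1 TGACG on the opposite strand at position -148. Among 32851 mouse promoters of this length, 20.8% hold TGACG, 7.81% TGANTCA and 1.79% TGACGTCA, so a single TGACG is a frequent match. It is a description of the letters, not of a bound site. Promoters of Chrna6 and Chrnb3 are not shown.

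**Figure D2:**
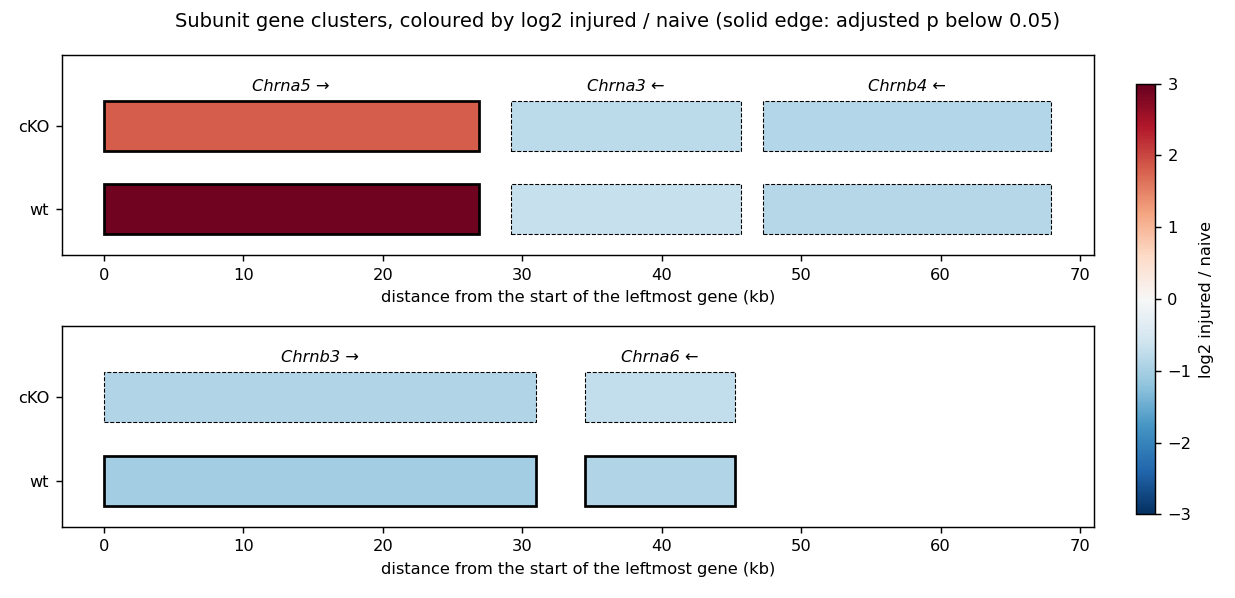
Gene bodies of the 2 subunit clusters drawn to scale, in kilobases from the start of the leftmost gene, with arrows for the strand. Colour gives the log2 injured over naive fold change in cKO (upper row) and wt mice (lower row); solid edges mark adjusted p below 0.05. Chrna5 is higher (1.82 in cKO, 2.92 in wt) while its 2 neighbours in the cluster are at negative values.

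Chrna3 and Chrnb4, the pair that forms the ganglionic receptor, had lower averages after crush in both genotypes and, in injured libraries, varied more between mice than the other 6 tested subunits, with a coefficient of variation of 51.6% and 55.3% in cKO and 63.1% and 68.7% in wt mice. Chrna3 had a lowest, median and highest level of 6.08, 28.6 and 41.4 CPM in cKO injured libraries, against 25.5, 41.9 and 69.2 CPM in cKO naive libraries. In wt injured libraries it had 3.15, 28.2 and 62.7 CPM, against 39.2, 52.8 and 77.5 CPM in wt naive libraries. The injured and naive ranges overlapped in both genotypes. Chrnb4 had 6.15, 17.7 and 33.5 CPM in cKO injured libraries, against 18.8, 32.4 and 56.6 CPM in cKO naive libraries. In wt injured libraries Chrnb4 had 1.57, 24.8 and 50.0 CPM, against 27.8, 39.7 and 67.8 CPM in wt naive libraries, with overlap again. Within a mouse the injured side was lower for Chrna3 in 7 of 8 cKO and 8 of 9 wt mice, and for Chrnb4 in 7 of 8 cKO and 9 of 9 wt mice.

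Neither passed the threshold without a block. After crush Chrna3 differed by -0.81 on the log2 scale in cKO (SE 0.39, adjusted p = 0.354) and -0.70 in wt mice (SE 0.36, adjusted p = 0.163), and Chrnb4 by -0.89 in cKO (SE 0.41, adjusted p = 0.325) and -0.86 in wt mice (SE 0.38, adjusted p = 0.0943), by edgeR. With the mouse as a block, both passed in wt mice, Chrna3 at -0.95 (adjusted p = 0.0435) and Chrnb4 at -1.17 (adjusted p = 0.0165), and neither in cKO mice (adjusted p = 0.16 and 0.147). Leaving out wt-176 as well gave -0.67 (adjusted p = 0.0959) for Chrna3 and -0.88 (adjusted p = 0.0255) for Chrnb4 in wt mice, so the call of Chrna3 in wt mice was lost without that mouse. In cKO mice the same fit gave -0.93 (adjusted p = 0.0475) for Chrnb4.

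The levels of both genes moved with those of posterior Hox genes. Among 13184 other genes, Chrnb4 was the most like Chrna3 over the 34 libraries (Pearson r = 0.975 of log2 CPM) and Asb18 the next (0.970), followed by Hoxd10 (0.965) and Hoxc11 (0.963). For Chrnb4, Asb18 (0.977) came first and Chrna3 (0.975) second, and Hoxc11 (0.965) came at rank 5. Hox genes of paralog groups 10 and 11 are expressed in caudal segments of the body and differ along the lumbar and sacral levels. The 6 such genes (Hoxa10, Hoxa11, Hoxc10, Hoxc11, Hoxd10 and Hoxd11) were therefore averaged on the log2 CPM scale, a list made after their likeness had been seen. The average was 2.18 ± 0.83 in cKO injured and 2.93 ± 0.49 in cKO naive libraries (SD, n = 8), and 2.25 ± 1.16 in wt injured and 3.13 ± 0.27 in wt naive libraries (SD, n = 9). Of the 6 genes, Hoxa10 (log2 fold change -0.28, adjusted p = 0.0022) and Hoxc10 (-0.34, adjusted p = 0.0215) passed as lower after crush in wt mice by edgeR (12.7% of all genes). In cKO mice 0 of 6 passed (0.583% of all genes lower).

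Mouse by mouse, the subunits followed the Hox average closely. In wt-176 the injured library was lower than the naive one by 3.70 (log2) for the Hox average, by 4.26 for Chrna3 and by 5.00 for Chrnb4. In cKO-194 the Hox average differed by -1.97, Chrna3 by -2.88 and Chrnb4 by -2.80, and in cKO-130 by -1.66, -2.41 and -2.04. At the other end, cKO-156 differed by 0.26 for the Hox average, 0.29 for Chrna3 and 0.08 for Chrnb4, and wt-195 by -0.09, 0.03 and -0.26. Over 17 mice, Pearson's r of these within-mouse differences with that of the Hox average was 0.97 for Chrna3 and 0.98 for Chrnb4 (Spearman's rho 0.93 and 0.95). Without the 2 mice farthest from the median, wt-176 and cKO-194, it was 0.94 and 0.92, and within genotypes it was 0.99 in cKO and 0.98 in wt mice for both genes. No p-value is given, since the Hox genes were picked for this likeness.

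The same relation reached other subunits less closely. Pearson's r over the 17 mice was 0.92 for Chrnb3, 0.80 for Chrna6, 0.76 for Chrna4 and -0.55 for Chrna5. Without wt-176 and cKO-194 it was 0.68, 0.31, 0.27 and -0.18. Within wt mice, wt-176 included, it was 0.97, 0.90, 0.87 and -0.86, and 0.64 for Chrna7. Within cKO mice these were 0.79, 0.47, 0.43, -0.25 and -0.32. The labels give L4 to L6 on both sides, and how much of each ganglion went into a library is not given in the sources used here. A difference in the segments sampled and an effect of injury can therefore not be told apart in the values of Chrna3 and Chrnb4. Nor can they fully in those of Chrnb3, Chrna6 and Chrna5.

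The Hox average of each library was also added to the model. For Chrna3 and Chrnb4 this gives no test, because the Hox genes were picked for their likeness to this pair in the same libraries and their average is itself lower after crush, so the log2 differences had to come close to 0. They were -0.11 in cKO and -0.08 in wt mice for Chrna3, and -0.06 in cKO and -0.25 in wt mice for Chrnb4. For Chrna5, which was not used to pick them, the model gave 1.45 in cKO (adjusted p = 0.000102) and 2.42 in wt mice (adjusted p = 4.77e-10), by edgeR. Its within-mouse differences also went with the Hox average, inversely (r = -0.86 in wt and -0.25 in cKO mice). For Chrna5 too, this fit does not tell segment from injury. Chrnb3 and Chrna6 also followed the Hox average within mice (r = 0.92 and 0.80). Since that average was lower after crush, this fit does not tell segment from injury for them either.

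**Figure D3:**
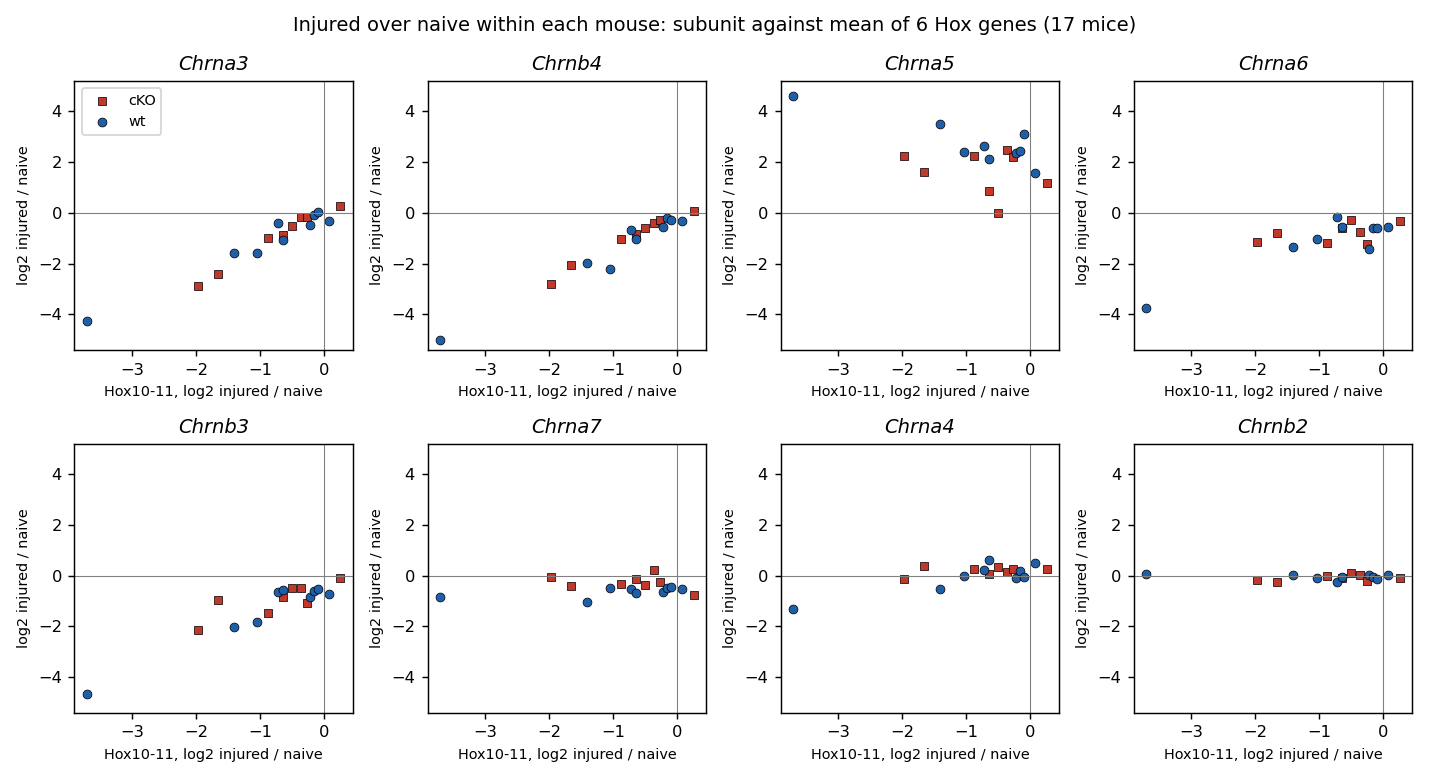
Difference between the injured and naive library of each mouse (log2 CPM) for each subunit (vertical axis) against the same difference for the average of 6 Hox genes of paralog groups 10 and 11 (horizontal axis); squares are 8 cKO and circles 9 wt mice. Chrna3 and Chrnb4 lie along a line through both genotypes (Pearson r = 0.97 and 0.98). Chrnb3, Chrna6 and Chrna4 follow the Hox average less closely (0.92, 0.80 and 0.76), and Chrna5 goes against it (-0.55). Over all 17 mice Chrna7 and Chrnb2 do not follow it (0.20 and -0.03). For Chrna7 the value was 0.64 in wt and -0.32 in cKO mice. The point at -3.70 is wt-176.

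Chrna6 and Chrnb3 form the second cluster, 45234 bases on chromosome 8 of GRCm38 from 27368711 to 27413944, with Chrnb3 (ENSMUSG00000031492) on the plus and Chrna6 (ENSMUSG00000031491) on the minus strand. Both fell after crush in wt mice. Chrna6 had a lowest, median and highest level of 21.1, 25.3 and 41.2 CPM in cKO injured libraries, against 36, 48.7 and 58.5 CPM in cKO naive libraries. In wt injured libraries it had 3.56, 27.0 and 36.6 CPM, against 36.8, 46.9 and 54.7 CPM in wt naive libraries. The wt ranges just missed each other (36.6 against 36.8 CPM) and the cKO ranges overlapped slightly. Within a mouse the injured side was lower in 8 of 8 cKO and 9 of 9 wt mice. The lowest value, 3.56 CPM, is that of wt-176; the next in its group was 14.7 CPM.

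For Chrna6 the log2 difference was -0.75 in cKO (SE 0.23, adjusted p = 0.063) and -0.90 in wt mice (SE 0.21, adjusted p = 0.00159), or 0.595 and 0.534 times the naive level, by edgeR. The difference of the effects was 0.16 (SE 0.31, adjusted p = 0.963). The cKO value passed without cKO-131 (-0.84, adjusted p = 0.0388) or without wt-176 (-0.75, adjusted p = 0.000999), and by DESeq2 (-0.76, adjusted p = 0.0277). As wt-176 is a control, leaving it out changed the spread shared by all groups, and the cKO difference stayed at -0.75. With the mouse as a block and all mice kept, the cKO value did not pass (-0.78, adjusted p = 0.0534, edgeR). The wt value did (-1.01, adjusted p = 0.00205, edgeR). Within sexes the wt value was -0.96 in females (adjusted p = 0.0346) and -0.84 in males (adjusted p = 0.0579). With the Hox average in the model the difference was -0.40 in cKO (adjusted p = 0.45) and -0.60 in wt mice (adjusted p = 0.00848), which does not tell segment from injury.

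Chrnb3 had a lowest, median and highest level of 6.08, 10.3 and 18.8 CPM in cKO injured libraries, against 14.0, 19.5 and 26.8 CPM in cKO naive libraries. The wt injured libraries had 1.09, 13.4 and 17.3 CPM, against 17.5, 24.5 and 28.9 CPM in wt naive libraries. As with Chrna6, the wt ranges just missed each other (17.3 against 17.5 CPM) and the cKO ranges overlapped. The injured side was lower in 8 of 8 cKO and 9 of 9 wt mice. Its log2 fold change was -0.91 in cKO (SE 0.30, adjusted p = 0.103) and -1.04 in wt mice (SE 0.28, adjusted p = 0.00549), or 0.532 and 0.486 times the naive level, by edgeR. The effects did not pass as different between genotypes (0.13, SE 0.41, adjusted p = 0.986, edgeR). Without wt-176 the cKO value passed (-0.91, adjusted p = 0.0122). Within sexes the wt value was -1.14 in females (adjusted p = 0.0346) and -0.88 in males (adjusted p = 0.329). With the Hox average in the model the fold change was -0.32 in cKO (adjusted p = 0.718) and -0.63 in wt mice (adjusted p = 0.00531). This does not tell segment from injury, as for Chrna6.

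Although neighbours, Chrna6 and Chrnb3 were not the closest pair in their levels. Among 13184 genes Chrna6 ranked 98 in likeness to Chrnb3 (r = 0.892), behind Trpc4 (0.986), a calcium-permeable channel, and Lrguk (0.960), and Chrnb4 of the other cluster ranked 12 (0.938). The genes most like Chrna6 were Mpped2 (0.967) and Tmem255a (0.966). Markers of neuron classes also moved on the injured side. In cKO mice, where 0.583% of all genes were called lower and 2.61% higher, 1 of 10 A-fibre markers and 1 of 7 of peptidergic nociceptors were lower, against 0 of the non-peptidergic, C low-threshold, itch-related and pan-neuronal markers, and 1 A-fibre and 2 itch-related markers were higher. In wt mice, where 12.7% of all genes were called lower, 5 of 10 A-fibre, 4 of 8 non-peptidergic, 3 of 7 peptidergic, 2 of 5 C low-threshold, 1 of 7 itch-related and 3 of 10 pan-neuronal markers were lower. Higher in wt mice (14.3% of all genes) were 1, 1, 1, 0, 3 and 2 of the same lists, among them P2rx3, an ATP receptor of non-peptidergic nociceptors (0.20, adjusted p = 0.0211). The C low-threshold markers summed to 273 to 515 CPM in cKO injured and 405 to 489 CPM in cKO naive libraries, and to 133 to 438 CPM in wt injured and 337 to 555 CPM in wt naive libraries. Their part in the falls of Chrna6 and Chrnb3 was not tested.

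Chrna7, which forms the fast homomeric receptor, fell after crush in wt mice by a smaller factor but with less spread. It had a lowest, median and highest level of 43.0, 62.9 and 79.4 CPM in cKO injured libraries, against 55.8, 72.2 and 107 CPM in cKO naive libraries. Among wt injured libraries it had 34.5, 51.0 and 58.7 CPM, against 62.9, 74.6 and 105 CPM in wt naive libraries. No wt injured library reached the lowest wt naive one, while the cKO ranges overlapped widely. The injured side was lower in 7 of 8 cKO and 9 of 9 wt mice, with cKO-193 the exception.

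After crush the log2 difference of Chrna7 in cKO mice was -0.26 (SE 0.11, adjusted p = 0.265, edgeR), and in wt mice -0.63 (SE 0.11, adjusted p = 2.76e-05, edgeR), or 0.834 and 0.645 times the naive level. With the mouse as a block the cKO value passed as well (-0.26, adjusted p = 0.0497), and so did the difference of the effects, 0.37 (SE 0.11, adjusted p = 0.0471), which had not passed without the block (0.37, adjusted p = 0.25). Without wt-176 the block gave 0.34 (adjusted p = 0.0731) for that difference, so its call was lost without that mouse. The wt value stayed near -0.63 within females (-0.61, adjusted p = 0.00356), within males (-0.72, adjusted p = 0.0497) and with the Hox average in the model (-0.59, adjusted p = 0.000333). On the injured side Chrna7 averaged 61.6 ± 10.1 CPM in cKO and 49.8 ± 7.65 CPM in wt libraries, 0.30 apart on the log2 scale (SE 0.11, adjusted p = 0.0723, edgeR). It passed without cKO-131 (0.36, adjusted p = 0.0209), without wt-146 (0.34, adjusted p = 0.0362) and without both cKO-131 and wt-150 (0.39, adjusted p = 0.0143). Abhd12 (0.935), a lipase, and Zfp365 (0.925) were the genes most like Chrna7.

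Chrna4 and Chrnb2, the brain pair, did not pass the threshold in any of the 5 comparisons of the fit without a block. Chrna4 had a lowest, median and highest level of 8.89, 9.89 and 10.5 CPM in cKO injured libraries, against 7.37, 8.04 and 10.3 CPM in cKO naive libraries. The wt injured libraries had 3.82, 8.67 and 10.5 CPM, against 4.77, 8.07 and 9.73 CPM in wt naive libraries. All 4 ranges overlapped, and cKO injured libraries had the least spread. Its log2 fold change was 0.19 in cKO (SE 0.15, adjusted p = 0.671), -0.01 in wt mice (SE 0.14, adjusted p = 0.971) and 0.34 for cKO over wt on the injured side (SE 0.15, adjusted p = 0.149), by edgeR. With the Hox average in the model the last of these was 0.40 and passed (adjusted p = 0.0352). Adding the Hox average and the block together, the injury value in cKO mice was 0.45 and passed (adjusted p = 0.0228). Iqgap3 (r = 0.751) and Nmur1 (0.740) were the genes most like Chrna4.

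Chrnb2 varied little, with a coefficient of variation of 6.55% to 8.88% by group. It averaged 113 ± 10.1 CPM in cKO injured and 121 ± 8.97 CPM in cKO naive libraries (SD, n = 8), and 122 ± 9.62 CPM in wt injured and 126 ± 8.27 CPM in wt naive libraries (SD, n = 9). Its log2 fold change was -0.09 in cKO (SE 0.05, adjusted p = 0.48) and -0.05 in wt mice (SE 0.05, adjusted p = 0.555), by edgeR. Of its exonic bases, 1365 (16.3%) also belong to Adar on the opposite strand, and since the strand setting of the counting is not given in the sources used here, some of its reads may be uncertain. Adar averaged 79.2 ± 2.86 CPM in cKO injured and 82.5 ± 4.88 CPM in cKO naive libraries, and 84.6 ± 4.56 CPM in wt injured and 84.7 ± 4.00 CPM in wt naive libraries. Armcx2 (r = 0.883) and Rab6b (0.852) were the genes most like Chrnb2. No other tested subunit shares exonic bases with another gene in the annotation.

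Chrna9, known from hair cells of the inner ear, was at the limit of detection. It had 6 counts over 8 cKO injured and 5 over 8 cKO naive libraries, and 4 over 9 wt injured and 7 over 9 wt naive libraries. Of 34 libraries 19 held 0 counts and none more than 3, so no fold change is given.

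**Figure D4:**
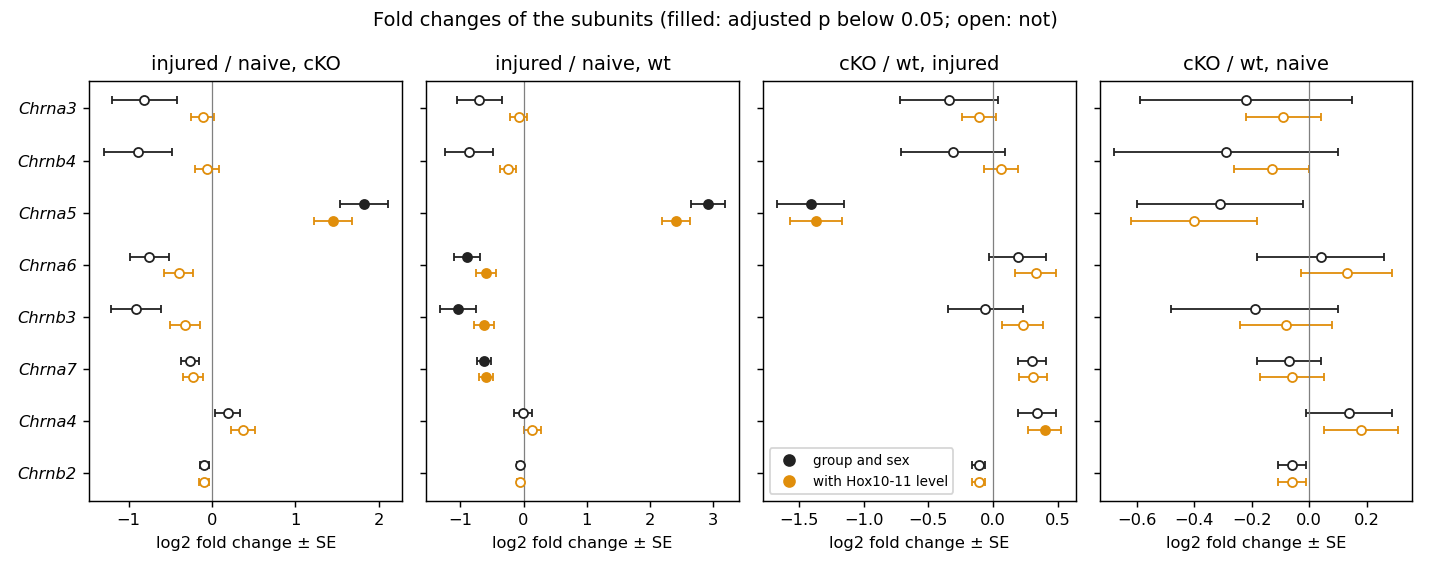
Log2 fold change ± SE of the 8 tested subunits for 4 comparisons, from the edgeR fit with group and sex (black) and with the average of 6 Hox genes added (orange); filled points have adjusted p below 0.05. With the Hox average, Chrna3 and Chrnb4, for whose likeness the Hox genes were picked, lie at -0.08 and -0.25 in wt mice. Chrna5, Chrna6, Chrnb3 and Chrna7 have filled points in wt mice. For Chrna6 and Chrnb3, which follow the Hox average, and for Chrna5, which goes against it, that fit does not tell segment from injury.

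Between the naive sides no genotype difference passed by edgeR: 0 of 8 subunits and 0 of 19565 genes (0% higher, 0% lower). There 506 genes had an unadjusted p under 0.05, and DESeq2 called 1 gene. Log2 fold changes of the subunits for cKO over wt ran from -0.31 for Chrna5 (SE 0.29) to 0.14 for Chrna4 (SE 0.15). On the injured side the 7 subunits other than Chrna5 lay between -0.34 for Chrna3 (SE 0.38) and 0.34 for Chrna4. The 95% intervals of Chrna3 (-1.07 to 0.40) and Chrnb4 (-1.09 to 0.46) are wide. Macrophage markers moved with side and genotype: after crush 0 of 12 rose in cKO mice (2.61% of all genes) and 10 of 12 in wt mice (14.3% of all genes). On the injured side 5 of 12 were lower in cKO than in wt mice (7.55% of all genes). For the difference of the injury effects 2 of 12 passed as lower (2.15% of all genes), and 6 of 12 with the block (4.29% of all genes). Their sums were 15.0 to 61.6 CPM in cKO injured, 13.0 to 42.7 CPM in cKO naive, 27.0 to 69.8 CPM in wt injured and 3.74 to 28.7 CPM in wt naive libraries. Their part in the value of Chrna5 was not tested. The genes most like Chrna5 were Sema6a (0.959), which encodes a membrane semaphorin, and Car3 (0.954), a carbonic anhydrase. Chrna3, its neighbour, ranked 11787 of 13184 (r = -0.587).

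The protein-coding neighbours of the clusters differed in what they did. Beside the chromosome 9 cluster, Psma4, a proteasome subunit 22850 bases away, differed by -0.01 in cKO (adjusted p = 0.983) and 0.11 in wt mice (adjusted p = 0.443) after crush, and Ube2q2 by 0.20 in cKO (adjusted p = 0.487) and 0.02 in wt mice (adjusted p = 0.911). Blocked by mouse, Psma4 passed in wt mice (0.11, adjusted p = 0.0465) and Ube2q2 in cKO mice (0.19, adjusted p = 0.00207). Fbxo22, which encodes an F-box protein, differed by -0.17 in cKO (adjusted p = 0.24) and fell by 0.20 in wt mice (adjusted p = 0.0183). Beside the chromosome 8 cluster, Eif4ebp1, an inhibitor of translation initiation 92037 bases away, rose by 0.64 in cKO (adjusted p = 0.0461) and 1.32 in wt mice (adjusted p = 6.06e-07), while Chrna6 and Chrnb3 fell in wt mice. The other 4 of the 8 neighbours, AY074887, Tex24, Gm45861 and Poteg, did not pass the filter on low counts. All values here are log2 fold changes by edgeR.

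Of the 7 other nicotinic subunits, those of muscle and Chrna2 and Chrna10, 3 were tested. After crush 1 rose in cKO mice, and in wt mice 2 rose and 1 fell, where 2.61% of all genes rose in cKO and 14.3% rose and 12.7% fell in wt mice, with a median log2 fold change of 0.76 in cKO and 1.11 in wt mice against 0.02 over all genes. Chrnb1, the beta subunit of muscle, averaged 1.08 ± 0.256 CPM in cKO injured and 0.56 ± 0.147 CPM in cKO naive libraries, and 1.11 ± 0.275 CPM in wt injured and 0.509 ± 0.0979 CPM in wt naive libraries. It rose by 0.94 in cKO (adjusted p = 0.000874) and 1.11 in wt mice (adjusted p = 7.33e-06) on the log2 scale. Chrna1, its alpha partner, rose by 1.22 in wt mice (adjusted p = 3.62e-05) and differed by 0.76 in cKO mice (adjusted p = 0.0535). On the injured side Chrna1 was lower in cKO than in wt mice (-0.66, adjusted p = 0.037), a call lost in 9 of 17 fits without 1 mouse. Chrna10, which pairs with alpha9 in hair cells, fell by 1.20 in wt mice (adjusted p = 0.00236) and differed by -1.06 in cKO mice (adjusted p = 0.0557). Blocked by mouse, both Chrna1 (0.72, adjusted p = 0.0486) and Chrna10 (-1.10, adjusted p = 0.0328) passed in cKO mice too. These levels are low: the 7 subunits together summed to 2.22 to 3.07 CPM in cKO injured and 2.02 to 3.02 CPM in cKO naive libraries. In wt mice the sums were 2.46 to 4.11 CPM in injured and 1.83 to 3.23 CPM in naive libraries. Skeletal muscle markers summed to 1.83 to 3.43 CPM over all groups.

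Several proteins fold, traffic or modulate nicotinic receptors. Of 14, 12 were tested. After crush 0 passed in cKO mice, where 2.61% of all genes rose and 0.583% fell, and 1 rose and 3 fell in wt mice, where 14.3% rose and 12.7% fell. The median was -0.07 in cKO and -0.14 in wt mice. For the difference of the effects 0 of 12 passed, where 0.695% of all genes were called higher and 2.15% lower. Ly6h, a membrane-anchored protein that restrains receptor delivery, fell by 0.86 (adjusted p = 0.00011), and Tmem35a, the chaperone NACHO that alpha7 receptors need, by 0.35 (adjusted p = 0.00942). With the Hox average in the model Tmem35a no longer passed (-0.27, adjusted p = 0.0759). The fall of Lypd6b (-0.25, adjusted p = 0.0455) and the rise of Ric3 (0.25, adjusted p = 0.0481), another chaperone, were lost in 12 and 13 of 17 fits without 1 mouse. Blocked by mouse, 1 rose and 4 fell in wt mice (20.8% and 20.1% of all genes). Tmem35a (-0.37, adjusted p = 0.00262), Lypd6b (-0.26, adjusted p = 0.00869) and Ric3 (0.24, adjusted p = 0.0022) were among them.

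Other genes make, move or break down acetylcholine. Of 8, 6 were tested; 0 passed in cKO mice, and 1 rose and 3 fell in wt mice, beside the same shares of all genes (2.61% and 0.583% in cKO, 14.3% and 12.7% in wt). Blocked by mouse, Ache (-0.42, adjusted p = 0.0117) and Colq (-0.66, adjusted p = 0.0174) fell in cKO mice as well (3.62% of all genes), and 4 fell in wt mice (20.1% of all genes). The median log2 fold change was -0.36 in cKO and -0.47 in wt mice. Colq, the collagen tail that anchors acetylcholinesterase, fell by 0.80 (adjusted p = 0.001), Ache itself by 0.58 (adjusted p = 0.00979) and butyrylcholinesterase, Bche, by 0.55 (adjusted p = 0.0136), and with the Hox average Ache (-0.33, adjusted p = 0.108) and Bche (-0.41, adjusted p = 0.109) did not pass. The rise of Slc44a1, a choline transporter, by 0.18 (adjusted p = 0.0446) was lost in 12 of 17 fits without 1 mouse. In wt mice the block gave 0.18 for Slc44a1 (adjusted p = 0.000113), -0.62 for Ache (adjusted p = 4.36e-05) and -0.57 for Bche (adjusted p = 0.000581). The injury effects on Slc44a1 also differed with the block (-0.17, adjusted p = 0.0209, 4.29% of all genes lower). Prima1, the membrane anchor of acetylcholinesterase, was higher in cKO than in wt mice on the injured side (0.34, adjusted p = 0.037), a call lost in 10 of 17 such fits.

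Among 5 muscarinic receptors, the other class of acetylcholine receptor, 4 were tested. In cKO mice 0 passed after crush, where 2.61% of all genes rose and 0.583% fell. In wt mice 1 rose and 2 fell (14.3% and 12.7% of all genes). Blocked by mouse, Chrm4 fell in cKO mice (-0.26, adjusted p = 0.0202), where 3.62% of all genes fell. In that fit the injury effects differed for Chrm2 (0.80, adjusted p = 0.00641) and Chrm3 (-0.74, adjusted p = 0.0309). For this difference 3.25% of all genes were called higher and 4.29% lower. Chrm3 averaged 2.54 ± 0.419 CPM in cKO injured and 1.86 ± 0.262 CPM in cKO naive libraries, and 4.43 ± 1.44 CPM in wt injured and 1.91 ± 0.385 CPM in wt naive libraries. It rose by 1.21 in wt mice (adjusted p = 2.08e-07) and was lower in cKO than in wt mice on the injured side (-0.80, adjusted p = 0.000423). Without the block, the difference of the injury effects on Chrm3 was -0.77 (adjusted p = 0.0462), lost in 13 of 17 fits without 1 mouse. With the Hox average it was -0.68 (adjusted p = 0.0263). Chrm2 fell by 0.82 in wt mice (adjusted p = 0.00011) and was higher in cKO than in wt mice on the injured side (0.57, adjusted p = 0.0132). Chrm1 fell by 0.53 in wt mice (adjusted p = 0.0261), a call lost without wt-139, wt-146, wt-172 or wt-176 and with the Hox average (-0.32, adjusted p = 0.237). It passed with the block (-0.53, adjusted p = 0.0146, 20.1% of all genes lower).

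Related channels of the Cys-loop family, the GABA-A, glycine and serotonin type 3 receptors, numbered 26, of which 21 were tested. After crush 1 rose and 1 fell in cKO mice, and 2 rose and 6 fell in wt mice, where 2.61% of all genes rose and 0.583% fell in cKO and 14.3% rose and 12.7% fell in wt mice, with a median of -0.12 in cKO and -0.48 in wt mice. Gabra5, a GABA-A alpha subunit, averaged 19.4 ± 7.12 CPM in cKO injured and 4.39 ± 1.14 CPM in cKO naive libraries, and 13.6 ± 4.49 CPM in wt injured and 4.10 ± 0.801 CPM in wt naive libraries. It rose by 2.14 in cKO (adjusted p = 3.86e-08) and 1.73 in wt mice (adjusted p = 1.12e-07). In the blocked fit Gabrg1 (1.00, adjusted p = 0.00311) also rose and Htr3b (-0.77, adjusted p = 0.0364) fell in cKO mice. Htr3a, the serotonin type 3 subunit, fell by 0.89 in cKO (adjusted p = 0.00919) and 0.95 in wt mice (adjusted p = 0.000382). Gabrg1 rose by 1.60 in wt mice (adjusted p = 0.000187) and Gabrb2 fell by 0.72 (adjusted p = 0.000255). On the injured side Gabrb2 was higher in cKO than in wt mice (0.64, adjusted p = 0.00294). With the block its injury effects differed between the genotypes (0.65, adjusted p = 0.00688, 3.25% of all genes higher). Values in these lists are log2 fold changes by edgeR, with p adjusted over all genes.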

How the data were processed

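RNA was measured in 34 libraries of neuron-enriched DRG cells, made from total RNA with a stranded paired-end kit, per the labels' protocols. The deposited values are raw counts per gene, and the authors used bcl2fastq 2.20, STAR and HTSeq on GRCm38 (submitters' processing notes). For STAR and HTSeq the version, annotation and use of strand were not given in the sources used here. Symbols were matched for 48349 of 48795 gene IDs. Rows with no gene ID numbered 0. Coordinates and exon lengths come from GENCODE M21 on GRCm38.

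Tests used edgeR 4.0.16 under R 4.3.3 (TMM, filterByExpr by group, robust quasi-likelihood F-test, 4 groups with sex as covariate, Benjamini-Hochberg over 19565 genes holding 99.97% of counts, threshold 0.05). The SE is the log2 fold change over the square root of F. Levels are TMM-scaled CPM; differences within a mouse and likeness use log2 CPM with a prior count of 2. The steps were checked on simulated data. The members, lists and tests were chosen with earlier results of these data known. Named are all 9 members, up to 4 called genes per list and comparison by smallest p, the 2 coding genes on each side of a cluster, the 2 genes most like each tested member, and Atf3 and Avil. The Hox list and the fits with it, the ribosomal split and the block without wt-176 were chosen after seeing the data.

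Replicates are mice, and the 2 sides of a mouse are paired by the animal: after subtracting group means, its libraries correlated with a median of 0.501 (17 pairs, 0.01 to 0.761, 16 over 0.1). No 2 libraries were identical, and 0 went against the sex label. The share of counts in Gm42418, Gm26917 and AY036118, genes that overlap ribosomal RNA, ran from 3.24% to 11.34%; 6 mice lay at or under 5.50% and 11 at or over 6.93%. Alternatives were DESeq2 1.42.0, median-ratio scaling, no filter, no sex covariate, each sex, the ribosomal share, the mouse as block, Cre-positive mice, and leaving out mice.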

Additional observations from a re-analysis of the deposited data

Results flagged for a closer look

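Values of 8 subunits were looked at in 48 groups of 8 or 9 mice for a sample far from the rest, and 5 such samples were found; about 1 in 20 groups would be picked out by chance. In 4 of them the sample was wt-176. Its injured library was lower than its naive library, with log2 differences of -4.26 for Chrna3 (the next wt mouse -1.59), -3.76 for Chrna6 (next -1.42), -4.68 for Chrnb3 (next -2.02) and -5.0 for Chrnb4 (next -2.2). In the same mouse the average of 6 Hox genes of paralog groups 10 and 11 differed by -3.70, the lowest of 17 mice. That library also had the lowest total and the highest ribosomal share of the 34, and the part of either in these values was not tested.

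For Chrnb2, wt-172 had 143 CPM in its injured library, where the next wt injured library had 126 CPM.

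The injury effect on Chrna7 differed between the genotypes by 0.37 (cKO minus wt, log2 scale) with the mouse as a block, at adjusted p = 0.0471 by edgeR, and adjusted p = 0.25 without the block. Leaving out wt-176 as well gave 0.34 with the block, which did not pass (adjusted p = 0.0731).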

How the results depend on the processing

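Of 1208 recomputed log2 fold changes of subunits, 1128 kept their direction and side of the threshold, 20 came to pass it, 8 lost it and 52 changed sign, 0 of which had passed in either fit; the cause was not tested. Subunits called after crush in cKO mice numbered 1, against 2 by DESeq2, with the mouse as a block, with block and Hox average, or without cKO-131 and wt-150, 5 with the block without wt-176, 0 in females or in mice with a high ribosomal share, and 1 to 3 without 1 mouse. In wt mice they numbered 4, against 2 in males or with a high ribosomal share, and 4 to 4 without 1 mouse. For cKO over wt on the injured side 1 became 2 with the Hox average or without cKO-131 and wt-150, 0 in males and 1 to 2 without 1 mouse. For the difference of injury effects 0 became 1 with the block, alone or with the Hox average, and stayed 0 to 0 without 1 mouse, as did the naive comparison.

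Sign changes follow as log2 values. With the Hox average: Chrna4 after crush in wt 0.14, injured cKO over wt Chrnb3 0.23 and Chrnb4 0.062, difference of effects Chrnb4 0.19; with the block too, Chrna4 in wt 0.25, Chrnb4 in cKO 0.002 and its difference of effects 0.21. With the block, difference of effects: Chrna3 0.039, Chrnb4 0.23; without wt-176 as well, Chrna6 -0.008, and Chrna4 in wt 0.11. In females: Chrna4 in wt 0.012, Chrnb3 injured 0.087, differences of effects Chrna3 0.25 and Chrnb4 0.32. In males: Chrna6 injured -0.006, Chrnb3 naive 0.038, differences of effects Chrna6 -0.034 and Chrnb3 -0.35. With a low ribosomal share: injured Chrna3 0.018, Chrnb3 0.053 and Chrnb4 0.20, naive Chrna6 -0.011, Chrna7 0.066 and Chrnb2 0.025, differences of effects Chrna3 0.64 and Chrnb4 0.83; with a high share, Chrna4 in wt 0.003. Chrnb4's difference of effects was 0.035 without the sex term, 0.075 with the ribosomal share as covariate and 0.06 without cKO-131 and wt-150. Naive Chrna6 was -0.038 in Cre-positive mice and -0.01 without cKO-131 and wt-150. Without 1 mouse, differences of effects ran from -0.30 to 0.13 for Chrna3, -0.011 to 0.27 for Chrna6, -0.055 to 0.30 for Chrnb3 and -0.20 to 0.22 for Chrnb4, Chrna4 in wt from -0.10 to 0.12 and injured Chrnb3 from -0.21 to 0.058.

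Over all genes, 624 were called after crush in cKO mice, against 1643 with the block, 2674 with it without wt-176, 367 with the Hox average, 126 in females, 99 in males, 133 and 384 at high and low ribosomal share, and 345 to 926 without 1 mouse. In wt mice 5283 became 8003 with the block, 3176 with the Hox average, 2923 in females, 814 in males and 3121 at a high share. For cKO over wt injured, 2175 became 674 in Cre-positive mice, 718 in females, 102 in males, 972 and 1446 at high and low share. The difference of effects called 556, against 1474 with the block, 1476 with it without wt-176, 2189 with block and Hox average, 67 in females, 0 in males, 48 and 3 at high and low share, and 339 to 717 without 1 mouse. Naive calls were 0, with 2 in females and 1 in Cre-positive mice. Splitting at the ribosomal share first planned left 0 mice above it and was not run. Chrna5 and Chrna9 rest on few counts, which limits their precision.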
